A study of Homo sapiens with 8 samples.

Results

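Genes of the endoplasmic reticulum (ER) that fold, quality-check, degrade and export secretory proteins, together with the sensors of the unfolded protein response (UPR), were followed between parental HCT116 cells and a derivative with an R201C change in GNAS. The group was defined by symbol, and its members were chosen with earlier results of these data known. It held 43 genes for chaperones, disulfide enzymes, degradation factors, translocon and coat subunits, UPR sensors and CREB3-type transcription factors. They were matched to Ensembl identifiers through the GENCODE 29 annotation. All 43 had a row among the 60609 gene identifiers of the count table. Of these, 41 passed the filter on low counts and were tested among 15751 genes, while HYOU1 and DERL3 did not pass it.

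Secretory and membrane proteins enter the ER through the Sec61 channel, fold with the help of the HSPA5 (BiP) chaperone system and of protein disulfide isomerases, and leave in vesicles with a COPII coat, while those that fail to fold are drawn back out for degradation. When unfolded protein builds up, the sensors IRE1 (ERN1), ATF6 and PERK start the UPR. IRE1 splices XBP1 mRNA and ATF6 is released by the site-1 and site-2 proteases of the Golgi, and both factors raise transcription of chaperone and degradation genes. Factors of the CREB3 family are ER membrane proteins that are freed by the same proteases.

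HCT116 is an established human colon cancer cell line. RNA was sequenced from 4 libraries of parental cells with wild-type GNAS, labelled as control, and from 4 libraries of HCT116 GNAS R201C/+ cells, labelled as made by CRISPR-Cas9, with both grown in DMEM/F12 medium with serum. The latter are called edited cells and libraries below. The product of GNAS is the alpha subunit of the stimulatory G protein, and R201C, here on one allele, is known to activate it. Whether replicates came from separate cultures, and whether the edited line is 1 clone, is not in the labels. Effects of R201C and of the editing and outgrowth of the line cannot be told apart, and p-values cover only the spread among these libraries, possibly a technical one.

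The libraries held 42584988 to 50986733 counts. GNAS itself was at 677 ± 16.8 CPM (counts scaled to a library total of 1000000 with TMM factors; mean ± SD, n = 4) in parental and 711 ± 13.2 CPM in edited libraries, a log2 change of 0.07 (edgeR adjusted p = 0.00412), and the groups overlapped. Counts per gene carry no allele, so this does not check the edit. Of 8 colon epithelial markers 6 were tested, and their summed level was 3853 to 4008 CPM in parental and 4400 to 4482 CPM in edited libraries, with 5 of them called. Their part in the ER results was not tested. Leukocyte markers summed to at most 0.748 CPM, with PTPRC and CD3E without a read, and endothelial markers to at most 0.984 CPM. Fibroblast markers summed to 28.7 to 32.4 CPM in parental and 29.6 to 31.7 CPM in edited libraries, with DCN and LUM without a read, and none of these 3 lists held a called gene. In bulk RNA, a change in the share of cells of one kind and a change of RNA per cell cannot be told apart.

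Most ER genes that differed were higher in GNAS R201C/+ cells, by small amounts. Of the 41 tested, 26 passed the test (edgeR quasi-likelihood F test, adjusted p under 0.05 over all tested genes), against 48.1% of all tested genes. Higher were 24, or 58.5%, against 24.1% of all tested genes, and lower were 2, or 4.88%, against 24.0%. In 25 members, or 61.0%, the 4 libraries of one group lay wholly above those of the other, against 41.6% of all tested genes. The median log2 change was 0.11 over the members and 0.002 over all tested genes, and 37 of 41 values were above 0. The median absolute log2 change was 0.11 in the members and 0.12 over all tested genes. The largest change among the members, of CREB3L2, was 1.33-fold. No member passed a test against a 1.5-fold change. Values given for each library run from replicate 1 to replicate 4.

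The members are well expressed, and genes with more reads pass the test more often. Among the 5149 tested genes between 35.3 and 218 CPM, the interquartile range of the members' levels, 63.3% were called, close to the 61.9% of the 21 members in that range. The direction differed: 29.1% of those 5149 genes were higher and 34.2% were lower, while 11 of the 21 members were higher and 2 were lower. The members' share of calls was near that of genes of like level, and their split by direction was not. The share with groups that did not overlap and the median absolute change were not compared with genes of like level.

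**Figure D1:**
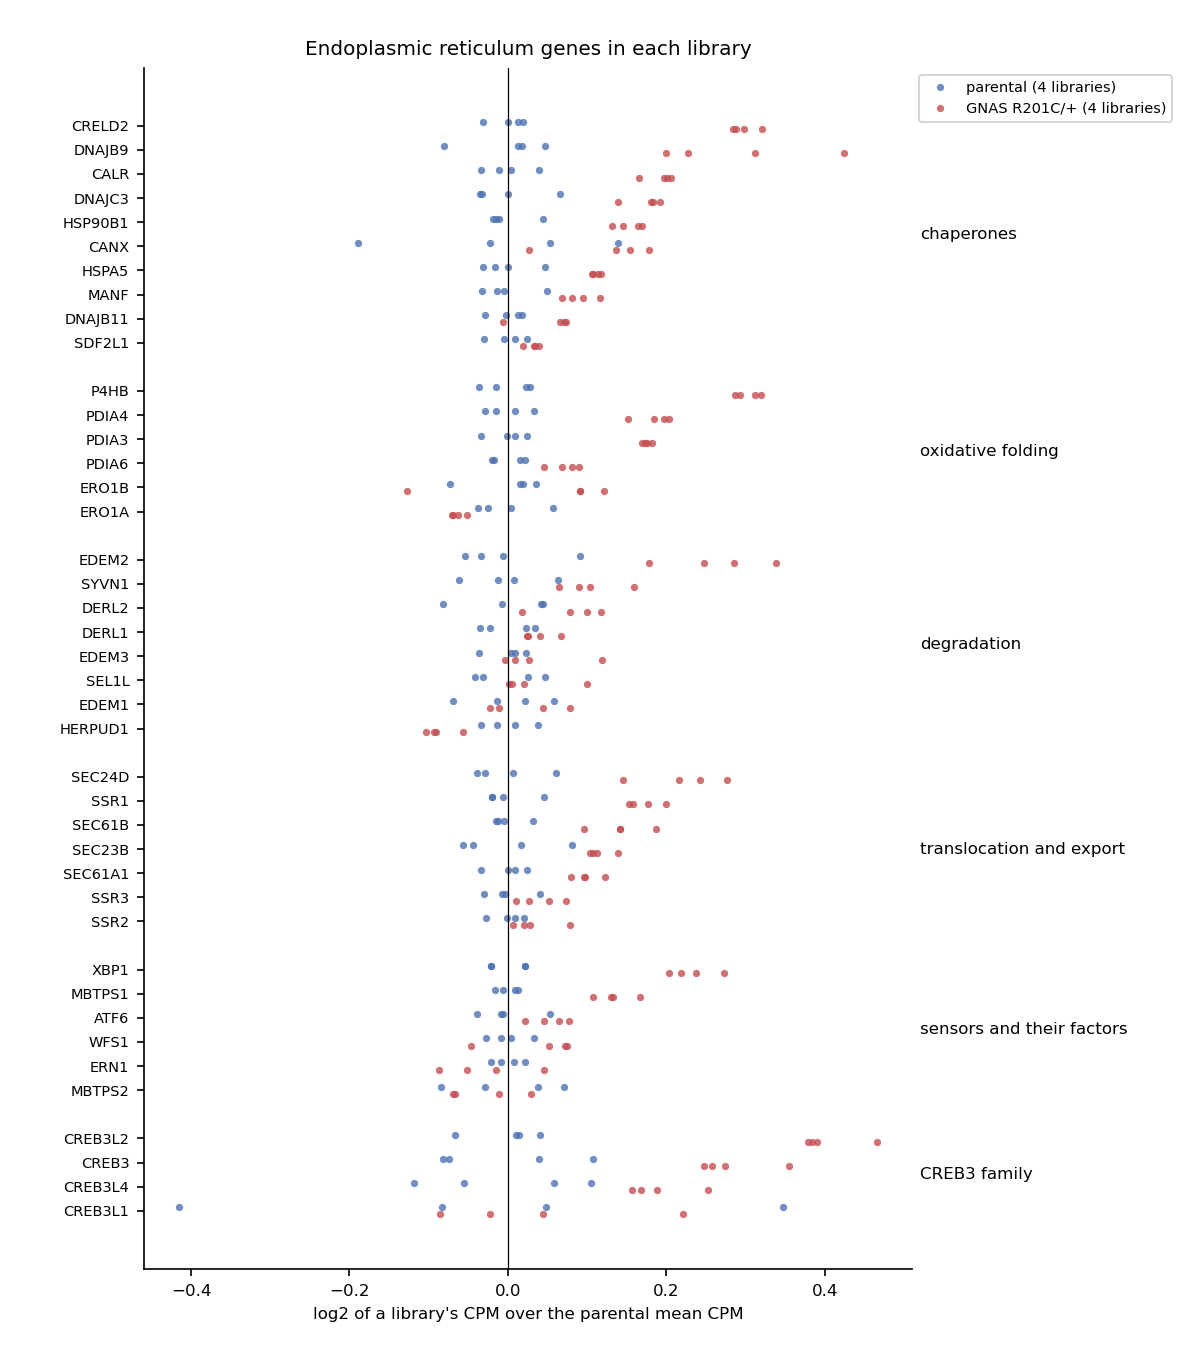
Each point is 1 library of 1 gene: the log2 of its CPM over the mean of the 4 parental libraries, for the 41 tested genes by role and by size of change. Red points (GNAS R201C/+) lie wholly to the right of blue points (parental) for genes such as CRELD2, P4HB, XBP1 and CREB3L2, mix with them for SEL1L, EDEM1 and ERN1, and lie to the left for ERO1A and HERPUD1.

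**Figure D2:**
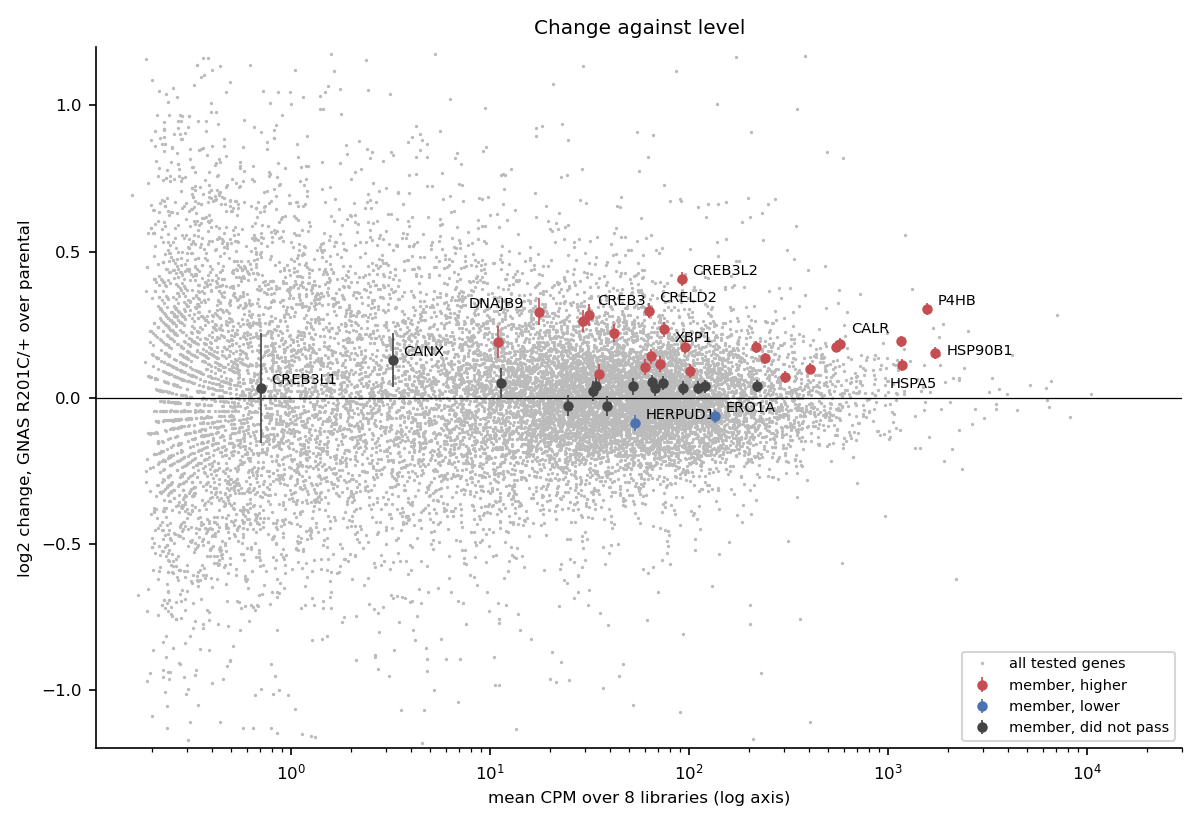
The log2 change (vertical) is plotted against the mean CPM over 8 libraries (horizontal, log axis) for all tested genes in grey and for the members in colour, with bars of 1 standard error; 172 of 15751 genes lie outside the vertical range. Red members (24, higher) sit within the cloud of other genes except CREB3L2 and P4HB near its upper edge, blue ones are ERO1A and HERPUD1, and dark ones did not pass.

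Summed over the 41 tested genes, the ER group took 9273, 9115, 9247 and 9499 CPM in parental replicates 1 to 4 and 10336, 10448, 10386 and 10398 CPM in GNAS R201C/+ replicates 1 to 4. The 2 ranges did not touch. The 5 most abundant members by CPM (HSP90B1, P4HB, HSPA5, CALR and PDIA4) made up 62.0% to 62.5% of that sum in parental and 63.5% to 63.7% in edited libraries, so the sum mainly follows these 5. Spread within a group was small: the median coefficient of variation of a member was 2.35% in parental and 2.07% in edited libraries, and CREB3L1, the gene with the fewest reads, had the widest at 21.7% and 9.39%.

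Known response elements were looked up in the promoters, because ATF6 and XBP1 bind DNA through them. RefSeq promoter windows (GRCh38.p14, 250 bases before to 50 after each start) were at hand for 39 of the 43 genes. They were searched on both strands for the ER stress element (ERSE), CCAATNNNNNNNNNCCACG. It was found in 8 of the 39 genes and in 25 of 27305 genes (0.0916%) with such a window, or 27 of 35116 windows (0.0769%). The 9 matches are given from CCAAT to CCACG on the strand where they read so, with the spacer in lower case and the fixed ends in capitals:
HSPA5: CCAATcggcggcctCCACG
HSP90B1, distal: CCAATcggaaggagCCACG
HSP90B1, proximal: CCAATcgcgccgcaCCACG
CALR: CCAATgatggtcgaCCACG
CRELD2: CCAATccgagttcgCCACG
PDIA6: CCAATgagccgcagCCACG
XBP1: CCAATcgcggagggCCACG
ERO1B: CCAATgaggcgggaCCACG
CANX: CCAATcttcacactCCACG

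The fixed ends are the same by construction, and only the spacer differs between genes. The HSPA5 match lies at chr9:125241391-125241409 on the minus strand and begins 66 bases before the start. The CRELD2 match lies at chr22:49918554-49918572 and the CALR match at chr19:12938384-12938402, both on the strand opposite to the gene. With 20 bases of context on each side, read along the gene's own strand and with the match in capitals, the promoters of 3 genes that rose read:
HSPA5: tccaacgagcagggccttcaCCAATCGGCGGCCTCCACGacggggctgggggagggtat
CALR: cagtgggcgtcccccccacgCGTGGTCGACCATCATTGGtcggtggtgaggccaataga
CRELD2: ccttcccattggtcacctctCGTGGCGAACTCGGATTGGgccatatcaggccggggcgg

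A second form, ERSE-II (ATTGGNCCACG), was found in HERPUD1, HYOU1 and SDF2L1 among members and in 19 of 27305 genes (0.0696%). None of the 3 genes was higher: HERPUD1 fell, SDF2L1 did not pass and HYOU1 was untested. The core of the UPR element, TGACGTGG, was found in HYOU1, where it overlaps an ERSE-II, and in SSR3 (0.927% of all genes). The cyclic AMP response element TGACGTCA, the site of CREB proteins, was found in 1 member, CREB3L2, and in 2.25% of all genes. The CREB3L2 window is shown because this gene had the largest change (chr7:138002238-138002285, minus strand, element in capitals):
CREB3L2: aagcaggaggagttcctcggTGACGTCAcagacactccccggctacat

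Of the 8 genes with an ERSE, 6 were higher and 0 lower, with a median log2 change of 0.14. These 8 include CANX, which did not pass and whose level is not read, as set out below. Of the 28 genes with a window but neither ERSE form, 16 were higher and 1 was lower, with a median of 0.09. The values ran from 0.05 to 0.30 in the first set and from -0.06 to 0.41 in the second, so the sets overlapped. Only exact matches inside the windows were searched, and whether an ERSE goes with the change was not tested. A match is a run of letters and not a measured binding site.

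**Figure D3:**
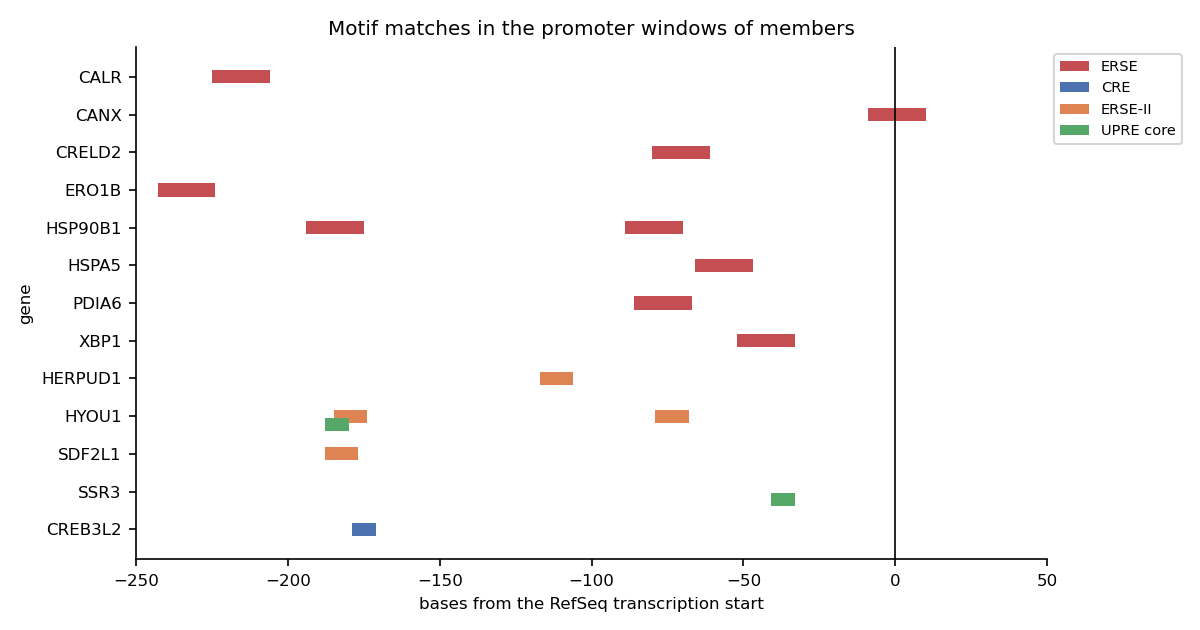
Positions of motif matches, in bases from the RefSeq transcription start at 0, in the windows of the 13 members that hold any. ERSE matches of HSPA5, CRELD2, PDIA6 and XBP1 begin 52 to 86 bases before the start and those of CALR and ERO1B 225 and 243 bases before it; the CANX match is drawn for 1 of its 4 start sites.

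Chaperones were the largest role, with 11 genes. Of the 10 tested, 7 rose, 0 fell and 3 did not pass, with a median log2 change of 0.14. HSPA5 (BiP), the main HSP70 of the ER and the gene most used as a readout of the UPR, was at 1120.2, 1108, 1133 and 1169 CPM in parental replicates 1 to 4 and at 1226, 1229, 1219 and 1220.2 CPM in GNAS R201C/+ replicates 1 to 4. The groups did not overlap, but the step was small, at 1.08-fold (log2 change 0.11 ± 0.02 SE, edgeR adjusted p = 9.36e-06). HSP90B1 (GRP94), the HSP90 of the ER, was at 1609.8, 1602, 1605 and 1674 CPM in parental and 1818, 1825, 1778 and 1794 CPM in edited libraries. It was also higher in all 4 edited libraries, with parental replicate 4 above its 3 fellows, and the log2 change was 0.15 ± 0.02 SE (edgeR adjusted p = 2.89e-08). Calreticulin (CALR), the soluble lectin that holds glycoproteins during folding, was at 1087, 1059, 1075 and 1113 CPM in parental and 1215, 1245, 1242 and 1249.7 CPM in edited libraries. It rose by 0.19 on the log2 scale (edgeR adjusted p = 9.93e-11).

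The largest rises among chaperones were in less abundant helpers. CRELD2 (GRCh38 chromosome 22, 49918167 to 49927540, plus strand), an ER-resident protein whose gene is induced by ER stress, was at 57.0, 55.3, 57.3 and 56.5 CPM in parental and 69.0, 68.8, 70.6 and 69.4 CPM in edited libraries. This is a tight step of 1.23-fold (log2 change 0.30 ± 0.03 SE, edgeR adjusted p = 5.04e-13). DNAJB9 (ERdj4; chromosome 7, 108569568 to 108574850, plus strand), a J-domain partner of HSPA5 that also holds IRE1 inactive, was at 16.0, 16.1, 15.04 and 16.4 CPM in parental and 18.6, 19.7, 18.3 and 21.3 CPM in edited libraries. It rose by 0.29 (standard error 0.05, edgeR adjusted p = 1.09e-06), and its 4 edited libraries were more scattered than those of CRELD2. DNAJB9 shares 6.45% and 3.49% of its exonic bases with THAP5 and PNPLA8 on the opposite strand (16626 and 10038 reads against 6576). DNAJC3 (p58IPK), another J-domain partner, rose by 0.17, from 89.9 ± 2.99 to 101 ± 1.63 CPM (edgeR adjusted p = 9.15e-08). MANF, an ER protein that binds HSPA5, rose by 0.09, from 97.8 ± 2.42 to 104 ± 1.505 CPM (edgeR adjusted p = 0.00118).

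The paired cofactors DNAJB11 (ERdj3) and SDF2L1, which act together on unfolded proteins bound for HSPA5, did not pass. DNAJB11 was at 72.8 ± 1.06 and 75.4 ± 1.99 CPM (edgeR adjusted p = 0.0907), and without GNAS R201C/+ replicate 4, its lowest edited library, the adjusted p was 0.0230. SDF2L1 was at 66.7 ± 1.06 and 68.2 ± 0.411 CPM (edgeR adjusted p = 0.306).

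Calnexin (CANX), HYOU1 and DERL3 could not be read. CANX, the membrane partner of CALR, had 564 reads in parental and 637 in GNAS R201C/+ libraries, or 3.10 ± 0.294 and 3.38 ± 0.154 CPM (edgeR adjusted p = 0.260). HYOU1, an HSP70-like exchange factor for HSPA5, had 1 read in 8 libraries and DERL3, a derlin of degradation, had 0, which allows up to 0.0590 to 0.0704 CPM in a library. Of the 8 nearest protein-coding genes, 5 for CANX, 4 for HYOU1 and 6 for DERL3 had fewer than 10 reads in all libraries together. These neighbours include genes that nearly all cells use: the ribosomal protein gene RPS25 beside HYOU1, MIF beside DERL3 and MAML1 beside CANX had 0 reads. The cause of the low counts in these stretches was not tested, and no level of the 3 genes is read from them. CANX stays in the counts and medians of tested members. Without it, 24 of 40 members were higher and 2 lower, with a median log2 change of 0.10. DERL3 also shares 77.0% of its exonic bases with SMARCB1 on the opposite strand.

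Among the 6 disulfide enzymes, all 4 isomerases rose and the 2 oxidases did not. P4HB (protein disulfide isomerase; chromosome 17, 81843159 to 81860694, minus strand), which makes and reshuffles disulfides and is also a subunit of prolyl 4-hydroxylase, was at 1429.9, 1373, 1393 and 1435 CPM in parental and 1717, 1747, 1756 and 1725 CPM in edited libraries. It had the largest change of the 5 most abundant members (log2 change 0.30 ± 0.02 SE, 1.23-fold, edgeR adjusted p = 2.49e-16). PDIA4 (ERp72) was at 538, 524, 529 and 547 CPM in parental and 594, 613, 607 and 615 CPM in edited libraries, a log2 change of 0.18 (edgeR adjusted p = 2.35e-10). PDIA3 (ERp57), which works with CALR and CANX on glycoproteins, was at 515, 504, 519 and 524 CPM in parental and 579.8, 585, 582 and 581 CPM in edited libraries, a log2 change of 0.17 (edgeR adjusted p = 3.73e-10). In both genes every edited library was above every parental one. PDIA6 (P5) rose least, by 0.07, from 296 ± 4.46 to 311 ± 4.13 CPM (edgeR adjusted p = 0.00234).

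ERO1A, the oxidase that recharges P4HB, fell by 0.06, from 138 ± 4.03 to 132 ± 0.755 CPM (edgeR adjusted p = 0.0169). Its parental libraries ran from 134 to 143 CPM with replicate 4 the highest, and without that library the log2 change was -0.05 and the adjusted p 0.0916. ERO1B, its paralogue, was at 11.2 ± 0.375 and 11.6 ± 0.883 CPM (edgeR adjusted p = 0.493). PDIA6 shares 25.2% of its exonic bases with ATP6V1C2 on the opposite strand (780 reads against 112638), and PDIA3 has a processed pseudogene, PDIA3P1, with 2235 reads against 203703; how reads over these bases were assigned is not known.

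Degradation genes were divided. Of 8 tested, 3 rose, 1 fell and 4 did not pass, with a median log2 change of 0.04. EDEM2 (chromosome 20, 35115357 to 35147364, minus strand), which trims mannose to mark glycoproteins for degradation, was at 28.4, 26.0, 25.7 and 26.5 CPM in parental and 30.2, 31.7, 32.5 and 33.7 CPM in edited libraries. It rose by 0.26 (standard error 0.04, edgeR adjusted p = 1.78e-07), with no overlap of the groups. Its paralogues EDEM1 and EDEM3 did not pass: EDEM1 was at 32.8 ± 1.22 and 33.3 ± 1.10 CPM (edgeR adjusted p = 0.610) and EDEM3 at 33.8 ± 0.596 and 34.7 ± 1.36 CPM (edgeR adjusted p = 0.345).

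SYVN1 (HRD1), the ubiquitin ligase of ER-associated degradation, rose by 0.11, from 58.0 ± 2.09 to 62.4 ± 1.75 CPM (edgeR adjusted p = 0.00185). It shares 7.24% of its exonic bases with the abundant FAU gene on the same strand (111634 reads against 22320). Its partner SEL1L was at 92.1 ± 2.73 and 94.2 ± 3.05 CPM (edgeR adjusted p = 0.292). HERPUD1, a scaffold of the same ligase whose gene responds to both UPR and ATF4 signals, fell by 0.09, and its edited libraries (51.5 to 53.2 CPM) lay below all parental ones (54.0 to 56.8 CPM; edgeR adjusted p = 0.00789). DERL1, a derlin of the exit channel, was at 119 ± 2.81 and 122 ± 1.70 CPM (edgeR adjusted p = 0.140). DERL2 was called at the edge of the threshold (log2 change 0.08, edgeR adjusted p = 0.0459) with overlapping groups, and the call was lost when parental replicate 1 or 3 or GNAS R201C/+ replicate 2, 3 or 4 was left out (adjusted p 0.224, 0.105, 0.128, 0.102 and 0.0651).

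Entry and export genes rose in 5 of 7 cases, with 0 lower and a median log2 change of 0.12. SEC24D (chromosome 4, 118722823 to 118838683, minus strand), a COPII subunit that picks cargo, was at 39.0, 38.1, 37.8 and 40.5 CPM in parental and 45.1, 42.99, 47.1 and 46.0 CPM in edited libraries. It rose by 0.22 (standard error 0.03, edgeR adjusted p = 1.75e-07), and all edited libraries were above all parental ones. SEC23B, the COPII subunit bound to it, rose by 0.12, from 68.8 ± 3.05 to 74.5 ± 0.836 CPM (edgeR adjusted p = 0.000390). The channel subunits SEC61A1 and SEC61B rose by 0.10 and 0.14 (edgeR adjusted p = 4.28e-05 and 1.49e-05). Of the 3 subunits of the translocon-associated protein complex among the members, SSR1 rose by 0.17, from 205 ± 4.501 to 231 ± 3.41 CPM (edgeR adjusted p = 3.08e-09). Another subunit, SSR4, belongs to a further list given below and rose by 0.13 (edgeR adjusted p = 6.38e-05). SSR2 and SSR3 did not pass (log2 change 0.03 and 0.04, edgeR adjusted p = 0.223 and 0.0971), and SSR3 passed without parental replicate 4 (adjusted p = 0.0490).

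The sensor genes ERN1 and ATF6 did not pass, while XBP1 and MBTPS1 rose; the gene of PERK, the other sensor, is given with its own list. ERN1 (IRE1) was at 24.8, 25.3, 24.6 and 25.1 CPM in parental and 24.1, 25.7, 24.7 and 23.5 CPM in edited libraries (log2 change -0.03 ± 0.04 SE, edgeR adjusted p = 0.583). ATF6 was at 63.7, 62.3, 63.6 and 66.4 CPM in parental and 66.9, 66.0, 65.0 and 67.5 CPM in edited libraries (log2 change 0.05, edgeR adjusted p = 0.0899). The groups overlapped in both genes, and ATF6 passed without parental replicate 4, its highest parental library (adjusted p = 0.0388). XBP1 (chromosome 22, 28794555 to 28800597, minus strand), the factor that IRE1 activates by splicing, was at 68.2, 68.2, 70.3 and 70.3 CPM in parental and 79.7, 81.6, 80.5 and 83.6 CPM in edited libraries. It rose by 0.23 (standard error 0.02, 1.18-fold, edgeR adjusted p = 1.60e-10). Counts per gene do not separate spliced from unspliced XBP1, so this is its total level.

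Of the proteases that free ATF6 and the CREB3 factors, MBTPS1 rose and MBTPS2 did not pass. MBTPS1 (site-1 protease), which makes the first cut, was at 232, 231, 229 and 227 CPM in parental and 247, 252, 258 and 252 CPM in edited libraries, a log2 change of 0.13 (edgeR adjusted p = 2.85e-07). MBTPS2 (site-2 protease), which makes the second cut inside the membrane, was at 40.2, 36.9, 38.4 and 41.1 CPM in parental and 37.3, 38.8, 40.0 and 37.4 CPM in edited libraries (log2 change -0.03, edgeR adjusted p = 0.503). Every edited library was higher for MBTPS1, and the groups overlapped for MBTPS2. WFS1 (wolframin), an ER membrane protein that restrains ATF6, was at 51.6 ± 0.913 and 53.0 ± 2.08 CPM (edgeR adjusted p = 0.277).

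The CREB3 family held the largest change of the whole group. Of its 4 genes, 3 rose, with a median log2 change of 0.24 over the 4. CREB3L2 (chromosome 7, 137874979 to 138002067, minus strand), which in mouse cartilage drives the coat gene Sec23a, was at 75.4, 79.5, 81.2 and 79.7 CPM in parental and 104, 109, 103 and 103 CPM in edited libraries. It rose 1.33-fold (log2 change 0.41 ± 0.03 SE, edgeR adjusted p = 4.03e-17), with GNAS R201C/+ replicate 2 above its 3 fellows. Of its 8 nearest coding genes, 6 had fewer than 10 reads, while CREB3L2 itself had 14384 and 19688 reads in the 2 groups; the part of this stretch in its change was not tested. CREB3 (Luman; chromosome 9, 35732335 to 35737004, plus strand) was at 30.5, 26.9, 26.8 and 29.1 CPM in parental and 34.3, 33.6, 33.9 and 36.2 CPM in edited libraries, a log2 change of 0.28 ± 0.04 SE (edgeR adjusted p = 6.85e-08). CREB3L4 was at 10.6, 9.81, 11.0 and 9.39 CPM in parental and 11.6, 11.4, 11.4 and 12.1 CPM in edited libraries, a log2 change of 0.19 (edgeR adjusted p = 0.00330). In both, no parental library reached the lowest edited one. CREB3L1 was barely expressed, at 0.886, 0.522, 0.719 and 0.657 CPM in parental and 0.685, 0.811, 0.656 and 0.717 CPM in edited libraries, or 128 and 135 reads in all (edgeR adjusted p = 0.906). CREB3 shares 7.30% and 3.21% of its exonic bases with GBA2 and TLN1 on the opposite strand (32159 and 136400 reads against 11690). CREB3L4 shares 9.64% and 3.27% with SLC39A1 and JTB, also on the opposite strand (375 and 6653 reads against 4055).

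Partners within a machine were compared as ratios inside each library, which need no scaling factor, over 12 pairs with an exact two-sided permutation test. With 4 libraries against 4 the smallest possible p is 0.0286. It was reached in 5 of the 12 pairs and became 0.0686 after adjustment, so no pair passed. In 5 pairs the ratios of the groups did not overlap. The XBP1 to ATF6 count ratio was 1.06 to 1.11 in parental and 1.19 to 1.24 in edited libraries (log2 difference 0.18, exact p = 0.0286, adjusted 0.0686). The MBTPS1 to MBTPS2 ratio was 5.52 to 6.26 and 6.45 to 6.73 (log2 difference 0.16, exact p = 0.0286), and the PDIA3 to P4HB ratio was 0.360 to 0.373 and 0.332 to 0.338 (log2 difference -0.13, exact p = 0.0286). The first 2 ratios were higher and the third was lower in every edited library. The SEC23B to SEC24D ratio (log2 difference -0.10, exact p = 0.0286) and the HSPA5 to HSP90B1 ratio (log2 difference -0.04, exact p = 0.0286) were also lower in every edited library. The EDEM1 to EDEM2 and EDEM2 to EDEM3 ratios overlapped by single libraries (log2 difference -0.24 and 0.23, exact p = 0.0571 each).

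Levels per length, as TPM over the union of annotated exons, spanned 0.623 to 1444 TPM in parental cells over the genes that could be read. Calreticulin (CALR) led with 1444 ± 27.4 TPM in parental and 1619 ± 20.3 TPM in edited libraries, above 99.7% of all tested genes. HSP90B1 (1250.4 ± 25.4 TPM), HSPA5 (1048 ± 24.0 TPM), P4HB (960.3 ± 17.0 TPM) and PDIA4 (590.0 ± 9.65 TPM) followed in parental cells, each wholly above the next. In GNAS R201C/+ cells P4HB (1162 ± 8.96 TPM) stood above HSPA5 (1111 ± 9.27 TPM). The order of these genes depends on the length used. The length of P4HB is 5303 bases as union of exons and 2603 as longest transcript, while HSPA5 has 3908 in both. With longest transcripts P4HB ranked 2, HSP90B1 3 and HSPA5 4, so no change of order between the groups is read from this. In the middle of the order, XBP1 (82.7 ± 1.54 TPM) and MBTPS1 (81.2 ± 0.774 TPM) overlapped, as did each neighbouring pair from DERL1 (60.9 TPM) through SSR2, DNAJC3 and SEC23B to CREB3 (53.9 TPM). ERN1 (8.31 ± 0.124 TPM) was among the least expressed, well below ATF6 (29.3 ± 0.756 TPM), and CREB3L1 (0.623 ± 0.133 TPM) was the lowest of the genes tested.

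**Figure D4:**
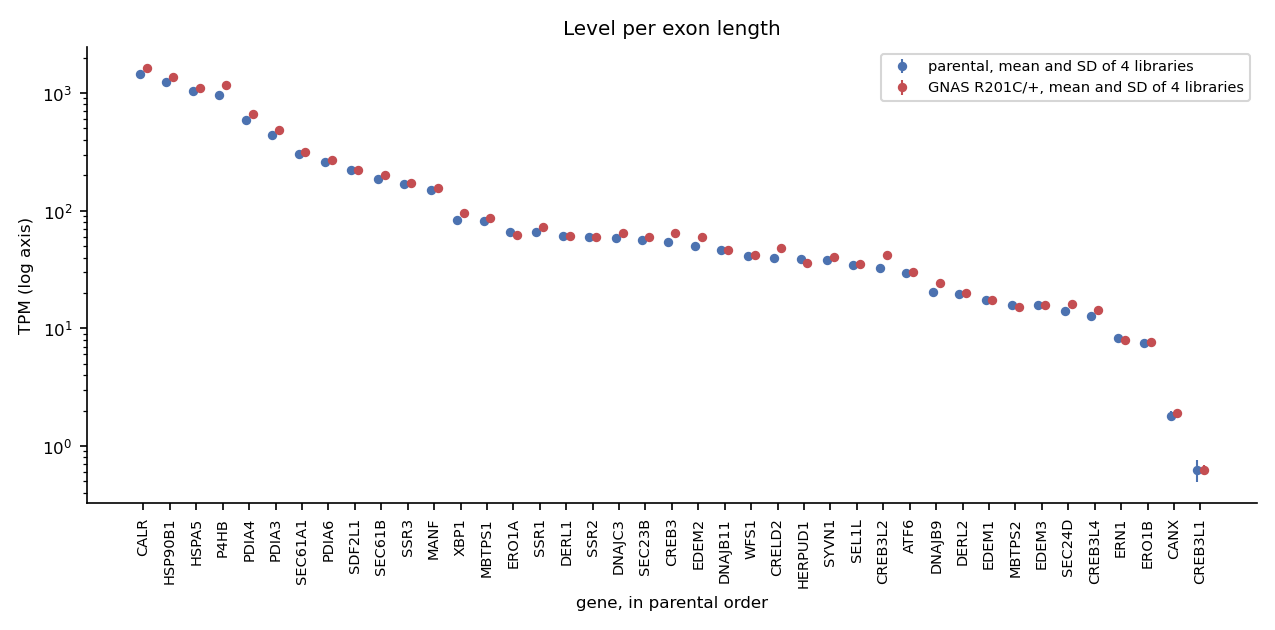
TPM (log axis) of 41 genes in the order of the parental mean; points are means and bars SDs of 4 libraries for parental (blue) and GNAS R201C/+ (red). CALR, HSP90B1, HSPA5 and P4HB lie highest, at 960.3 to 1444 TPM in parental libraries, and CREB3L1 lies lowest at 0.623 TPM; CANX is plotted, but no level is read from it.

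The rest of the ER machinery was read from 8 lists of 137 further genes, of which 131 were tested. These lists, too, were chosen with earlier results of these data known. Outside the PERK arm, 60 of 121 tested genes (49.6%) were higher and 16 (13.2%) lower, with a median log2 change of 0.06, against 24.1% and 24.0% of all tested genes. Cofactors of folding had 11 higher and 2 lower of 20: the collagen chaperone gene SERPINH1 rose by 0.36, from 221 ± 3.26 to 284 ± 4.08 CPM (edgeR adjusted p = 4.10e-19), and SDF2 and the prolyl isomerase gene PPIC by 0.25 each. Glycan handling had 8 higher and 1 lower of 14: the lectins OS9 and ERLEC1 rose by 0.25 and 0.23, and the glucosidase subunit PRKCSH by 0.23. Subunits of the translocon and of oligosaccharyltransferase, which adds N-glycans, had 13 higher and 1 lower of 23, with MAGT1, OST4 and TRAM1 up by 0.23, 0.20 and 0.19.

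Other degradation genes had 10 higher and 3 lower of 21, where SELENOS and UBXN6 rose by 0.26 and 0.19 and the ubiquitin-conjugating enzyme gene UBE2G2 fell by 0.16. RNF5 and BAG6 of this list were untested, and all 8 of the nearest coding genes of each had fewer than 10 reads. Other oxidoreductases were mixed, with 6 higher and 3 lower of 15, and the sulfhydryl oxidase genes QSOX1 and QSOX2 moved apart (0.17 and -0.19), while ERP44 rose by 0.16. COPII genes had 5 higher and 3 lower of 15, with SEC23A, PREB and SEC31A up by 0.16, 0.14 and 0.09. ER calcium genes had 7 higher and 3 lower of 13. The calcium-binding gene NUCB1 rose by 0.37, from 91.0 ± 2.43 to 118 ± 3.70 CPM (edgeR adjusted p = 3.73e-16), the pump gene ATP2A3 rose by 0.23, and the inositol trisphosphate receptor gene ITPR1 fell by 0.38, from 20.2 ± 1.498 to 15.4 ± 0.625 CPM (edgeR adjusted p = 7.73e-09).

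The PERK arm had more genes lower than higher, with 2 higher and 7 lower of 10 and a median log2 change of -0.16. Over all tested genes, 24.1% were higher and 24.0% were lower. The 10 genes were not compared with genes of like level. The 2 that rose were EIF2AK3, the gene of PERK itself, and ATF3, a stress-induced transcription factor. EIF2AK3 rose by 0.17, from 21.8 ± 0.275 to 24.6 ± 0.719 CPM (edgeR adjusted p = 0.000133), and ATF3 by 0.16, from 20.2 ± 0.344 to 22.5 ± 0.545 CPM (edgeR adjusted p = 0.000720), and in both every edited library was above every parental one. Of the 8 coding genes nearest to EIF2AK3, 6 had fewer than 10 reads. Of the lower genes, ASNS fell by 0.95, CHAC1 by 0.55 and TRIB3 by 0.50 (edgeR adjusted p = 4.71e-11, 8.67e-10 and 4.68e-17). ATF4 and DDIT3 fell as well (log2 change -0.23 and -0.31, edgeR adjusted p = 3.95e-13 and 1.01e-05). Whether the targets of ATF4 moved as a set was not tested. The difference between this list and the folding genes was not tested.

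**Figure D5:**
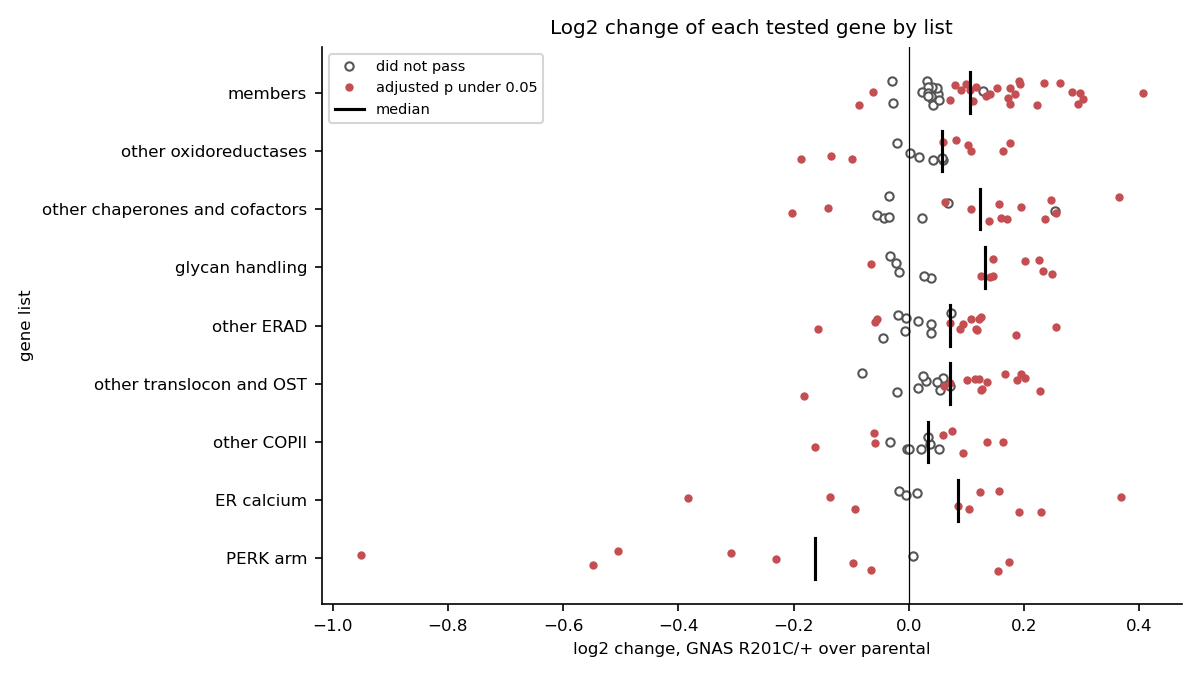
Each point is the log2 change of 1 tested gene, filled where the adjusted p was under 0.05, for the members and 8 further ER lists; black bars are medians (OST, oligosaccharyltransferase). The medians lie right of 0 for the members (0.11) and 7 lists and left of 0 for the PERK arm (-0.16).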

How the data were processed

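Total RNA of 8 libraries was sequenced after a directional kit. The submitters' processing notes name STAR, featureCounts, Trimmomatic, bcl2fastq, DESeq2 and the GRCh38.p12 build, without versions. For the annotation release, the strand setting and multiply mapped reads, the answer was not given in the sources used here. The authors deposited raw gene counts for 60609 identifiers, of which GENCODE 29 held 58457, and all 8 columns were used.

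Counts were fitted in R 4.3.3 with edgeR 4.0.16: filterByExpr (minimum count 10, minimum total 15), TMM factors, a robust quasi-likelihood fit with group as its only term, and Benjamini-Hochberg adjustment over all 15751 tested genes, with calls at an adjusted p under 0.05. The fit was tested on simulated data. Standard errors are the absolute log2 change over the square root of F. Changes are GNAS R201C/+ relative to parental. TPM used union exon lengths of GENCODE 29. Ratios of pairs, with 0.5 added to each count, were tested with SciPy 1.17.1. Promoters are RefSeq windows.

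The members and lists were chosen with earlier results of these data known. Values in every library are given for the 12 called members with the largest change and for HSPA5, HSP90B1, XBP1, ERN1, ATF6, MBTPS1, MBTPS2 and the CREB3 genes. From each further list, up to 3 called genes with the largest change and no overlap are named. SSR4 is named as well, as a subunit of the complex of SSR1, SSR2 and SSR3. Genes at 0 beside HYOU1, DERL3 and CANX, and the other 2 untested list genes named with them, were chosen after their values were seen. So were EIF2AK3, ATF3, ATF4 and DDIT3. Alternatives were DESeq2 1.42.0, limma-voom (limma 3.58.1), other scalings and filters, a 1.5-fold test, the replicate block and each library left out. No library was a duplicate of another in its group (chi-square per gene 1.62 to 4.11, above counting noise).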

Additional observations from a re-analysis of the deposited data

Results flagged for a closer look

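In 4 of 82 groups of 4 libraries, 1 library of a member stood far from the other 3, about as often as chance gives (1 in 20 groups). HSP90B1 was at 1674 CPM in parental replicate 4 against 1602 to 1609.8 CPM in the others. DNAJB11 was at 72.5 CPM in GNAS R201C/+ replicate 4 against 76.2 to 76.6 CPM, and ERO1B at 10.2 CPM in GNAS R201C/+ replicate 3 against 11.9 to 12.2 CPM. CREB3L2 was at 109 CPM in GNAS R201C/+ replicate 2 against 103 to 104 CPM. Beside the first of these, parental replicate 4 was the highest parental library for 20 of 41 members and for 24.4% of all tested genes, and parental replicate 2 was the lowest for 23 of 41. For how many of all tested genes parental replicate 2 was the lowest was not counted, so whether this is particular to the members is open.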

How the results depend on the processing

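Without the 1.5-fold test, 640 of 655 combinations of member and alternative kept direction and call; 9 lost a call, 3 gained one and 3 changed sign without a call. The sign changes were EDEM1 without parental replicate 1 (log2 change -0.000647; highest without parental replicate 2, 0.0435) and CREB3L1 without parental replicate 2 (-0.0856) or GNAS R201C/+ replicate 2 (-0.0275; highest without parental replicate 1, 0.184). Against a 1.5-fold change, 0 members were called (0 higher, 0 lower), 1 gene of the further lists (0 higher, 1 lower) and 256 of all tested genes (138 higher, 118 lower), since this test asks for more than most changes hold. With 1 library left out, 25 to 27 members were called, 23 to 26 higher and 1 to 2 lower; the 1 is without parental replicate 4, where ERO1A was lost. DERL2 was also lost under DESeq2 (adjusted p 0.0905), library totals only (0.0723) and no filter (0.0693), the cause was not tested. No scaling moved the median of all genes by more than 0.02.

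Same-numbered libraries did not deviate together (correlations -0.05 to 0.05). This gave no sign that the numbers pair samples, but it cannot exclude pairing, since a weak shared effect could go unseen. With the replicate block, 26 members, 83 further genes and 7413 genes in all were called. Lengths of the longest transcript in place of the union of exons moved 5 members by more than 3 places in the order of levels. Without members in stretches of genes with few reads, chosen after seeing the data, 25 were called, 23 higher and 2 lower: this drops CANX, SEL1L and CREB3L2, the last of which had the largest change, and P4HB then leads with 0.30. All 108 alternatives over the 12 pairs kept the direction. At 128 and 135 reads, CREB3L1 could show only large changes.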
